A study of Mus musculus with 4 samples.

Results

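The 5 genes described here serve amino acid sensing at the lysosome or, for Asns, amino acid synthesis: Rragd, Mios, Asns, Atp6v1f and Laptm4b. They were chosen by symbol, as 5 of the 56748 gene IDs in the count tables. The tissue was lymph node of mice with EAE (experimental autoimmune encephalomyelitis), a model of multiple sclerosis in which immunized animals develop inflammation of the brain and spinal cord. Mice of the treated group were given BrQ, the quinone 2-bromo-1,4-naphthalenedione, and those of the other group vehicle. Total RNA from each mouse was sequenced as 1 library, giving 2 BrQ libraries and 2 Vehicle libraries, numbered 1 and 3 in each group. All 4 mice had EAE, so a lymph node without the disease was not compared. The labels give no strain, sex, age, dose, route or day of collection.

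Cells read their amino acid supply on the surface of the lysosome, where Rag GTPases bring the growth kinase complex mTORC1 to its activator when amino acids are plentiful. The vacuolar proton pump acidifies the lysosome and takes part in this signal, and the GATOR complexes switch the Rag GTPases on or off. When amino acids run short, a separate stress response raises enzymes of amino acid synthesis. In lymph nodes, mTORC1 activity is known to rise in lymphocytes that have met antigen.

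Reads assigned to gene intervals numbered 6992223 and 6813832 in BrQ replicates 1 and 3, against 7315568 and 7989226 in Vehicle replicates 1 and 3. Most gene names elsewhere in these tables appeared displaced from the reads of those genes. Of 18389 protein-coding genes with a plain symbol, 25.6% averaged at least 50 reads per library. Among the 20 nearest such genes around each member, the number was 12 for Rragd and Atp6v1f, 11 for Laptm4b and 10 for Mios and Asns, or 50% to 60%. The members were selected from stretches where names and reads seemed to meet, so these shares describe the choice and do not test it. The share of gene reads from mitochondrial genes was 15.8% and 12.1% in BrQ, against 20.6% and 30.3% in Vehicle. This difference bears on any scaling to gene reads.

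All 5 members had exons that overlapped no other annotated gene in GENCODE M21, on the GRCm38 build. Rragd lies on chromosome 4 from 32983037 to 33022180 on the plus strand. Asns lies on chromosome 6 from 7675169 to 7693254 on the minus strand. Mios follows it on the plus strand of chromosome 6, from 8209222 to 8236274. Atp6v1f lies farther along chromosome 6, from 29467718 to 29470512 on the plus strand. Laptm4b lies on chromosome 15 from 34238028 to 34284302 on the plus strand. Of all 50-base stretches of the annotated transcripts, 0% for Mios and Asns, 0.190% for Rragd, 3.64% for Laptm4b and 11.2% for Atp6v1f occurred in another gene. For Atp6v1f the copy was a processed pseudogene, AC169506.3 in GENCODE and Gm9349 in the count tables, and that row held 0 reads in all 4 libraries. It lies outside the stretches where names and reads seemed to meet, so its 0 reads do not show how reads were shared.

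Levels were compared as RPKM, the TMM-scaled counts per 1000000 gene reads (CPM) divided by the kilobases of exon. On this scale the proton pump gene stood far above the other 4. Atp6v1f averaged 337.4 ± 93.1 RPKM (SD, n = 4 libraries), 102 times the level of Rragd. Mios averaged 12.1 ± 0.696 RPKM and Asns 11.3 ± 2.52 RPKM, and their ranges over the libraries overlapped (11.5 to 13.0 for Mios, 9.77 to 15.04 for Asns). Laptm4b followed at 6.20 ± 1.05 RPKM and Rragd was lowest at 3.32 ± 0.504 RPKM. Except for Mios and Asns, the ranges of neighbours in this order did not overlap. The exon lengths behind these values are those of GENCODE M21, which may differ from the annotation used for counting.

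**Figure D1:**
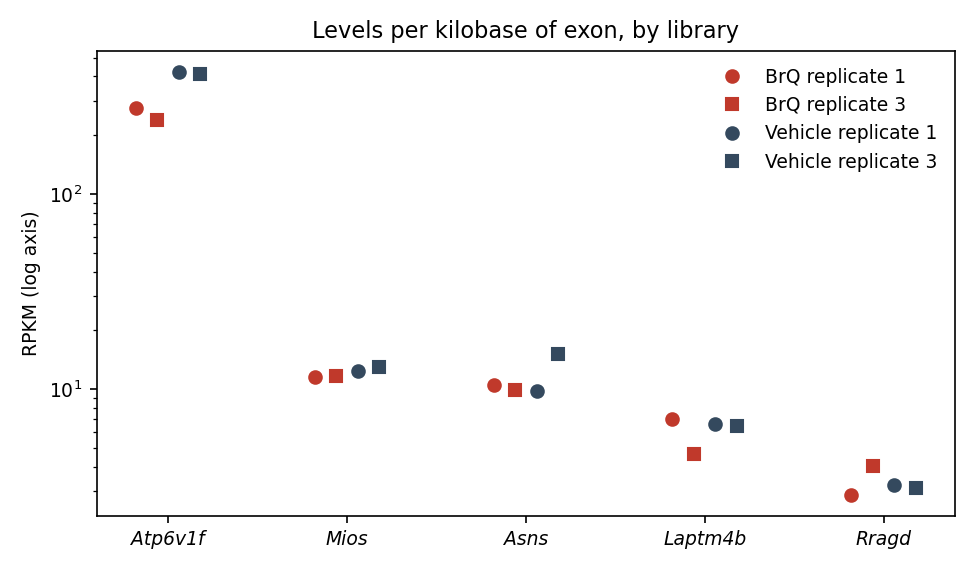
Level of each member per kilobase of exon (RPKM, log axis) in the 4 libraries, with BrQ libraries left of Vehicle libraries. Atp6v1f lies between 239.3 and 422.1 RPKM and the other 4 members between 2.88 and 15.04 RPKM.

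BrQ was set against Vehicle to ask which lymph node transcripts differ after treatment, and among the 5 members 1 passed the test, Atp6v1f, which was lower in BrQ. Of all 10223 features tested, 45.7% passed, 23.6% higher and 22.2% lower in BrQ. The 1 of 5 members called lower is near the 22.2% of features called lower, and below the 45.7% called in either direction. Atp6v1f encodes subunit F of the V1 sector, the part of the vacuolar proton pump that splits ATP in the cytosol. It held 2329 and 1971 reads in BrQ libraries 1 and 3, against 3088 and 2851 reads in Vehicle libraries 1 and 3. As TMM-scaled CPM these were 294.2 and 254.3 in BrQ against 448.7 and 437.5 in Vehicle. Both BrQ libraries lay below both Vehicle libraries, also when scaled to gene reads without TMM, to all read rows, or to gene reads without the mitochondrial genes. The group means were 274.3 ± 28.2 CPM in BrQ and 443.1 ± 7.88 CPM in Vehicle (SD, n = 2 each). By edgeR's quasi-likelihood test with Benjamini-Hochberg adjustment over all features, the log2 fold change of Atp6v1f was -0.69 ± 0.14 (SE; adjusted p = 0.00316), which is 0.619-fold (95% interval 0.501 to 0.764).

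The call on Atp6v1f depended on the scaling and on 1 library. With library sizes from gene reads alone its log2 fold change was -0.32 (adjusted p = 0.135, edgeR), and without BrQ replicate 3 it was -0.58 (adjusted p = 0.0680, edgeR). The p-values rest on 2 mice per group and on a spread that edgeR estimates partly from the other features. Fewer cells of a type cannot be told apart from less RNA per cell in whole lymph nodes.

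The 250 bases before the RefSeq start of Atp6v1f are shown because it is the member that was called. The capitals mark matches to the GC box GGGCGG, a common promoter element that was added after the sequence was seen, searched on both strands of 300-base windows from 250 bases before to 50 after each start. The stretch is chr6:29467533-29467782 on the plus strand (RefSeq, GRCm38.p6). In GENCODE M21 the gene starts at 29467718, inside this stretch, so the marked matches lie within the GENCODE gene.
Atp6v1f promoter: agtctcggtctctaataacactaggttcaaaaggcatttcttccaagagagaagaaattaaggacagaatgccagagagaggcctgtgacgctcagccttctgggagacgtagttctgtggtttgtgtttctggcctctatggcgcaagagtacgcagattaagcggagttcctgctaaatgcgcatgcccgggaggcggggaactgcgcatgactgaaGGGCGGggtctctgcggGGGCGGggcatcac

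The Atp6v1f window held 2 GC boxes, which begin 31 and 14 bases before the RefSeq start. Among members not called, the window of Mios held 3, that of Asns 1 and that of Rragd 0. Of all 32851 RefSeq promoter windows, 35.7% held at least 1. The E-box CACGTG, the core of the element that the lysosomal regulator TFEB is known to bind, occurred in 7.15% of all windows and in none of those of Rragd, Mios, Asns and Atp6v1f, the 4 members found in the RefSeq table. No match says only that these letters are not in these windows.

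**Figure D2:**
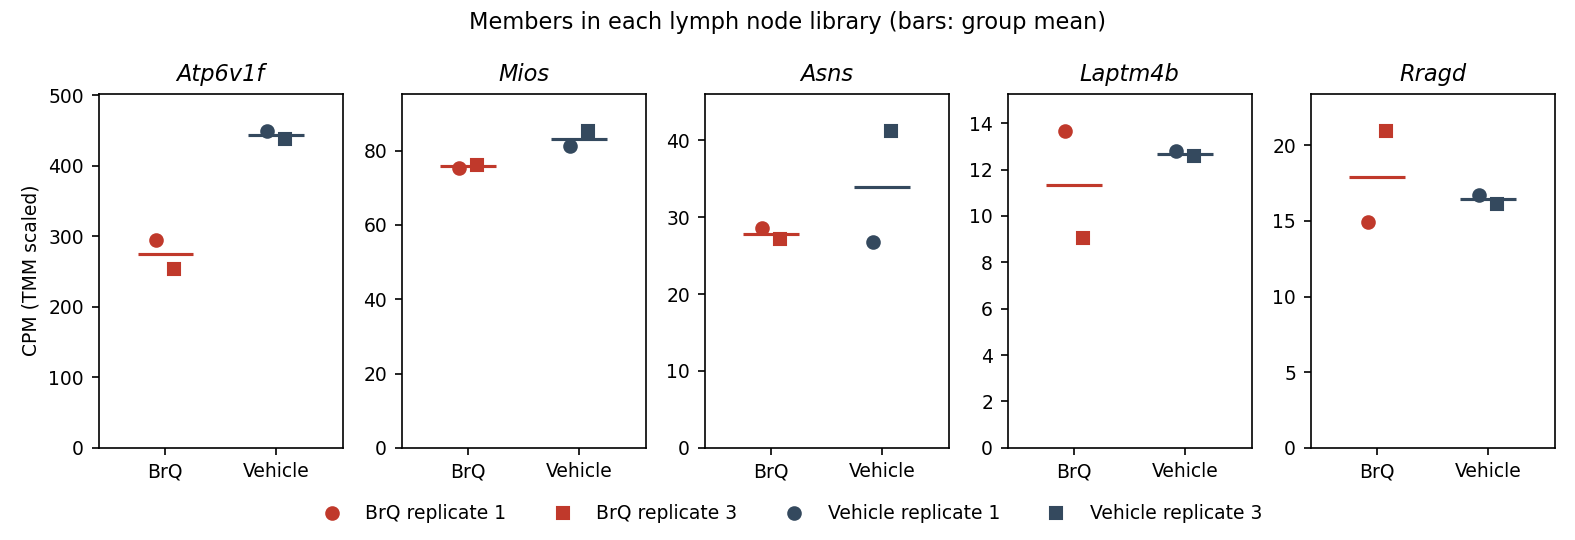
TMM-scaled CPM of each member in the 2 BrQ libraries (left) and the 2 Vehicle libraries (right), with bars at the group means. The groups are apart for Atp6v1f, close for Mios (75.4 and 76.3 in BrQ, 81.2 and 85.2 in Vehicle) and overlap for the other 3 members.

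Rragd encodes RagD, one of the Rag GTPases that dock mTORC1 on the lysosome. It held 118 and 162 reads in BrQ libraries 1 and 3, against 115 and 105 reads in Vehicle libraries 1 and 3. After scaling these were 14.9 and 20.9 CPM in BrQ against 16.7 and 16.1 CPM in Vehicle. BrQ replicate 3 was the highest library and BrQ replicate 1 the lowest, so the BrQ mice enclosed the Vehicle mice. Rragd did not pass (log2 fold change 0.12 ± 0.25 SE, adjusted p = 0.711, edgeR), and the 95% interval ran from 0.736-fold to 1.62-fold. Without BrQ replicate 3 the log2 fold change was -0.13. Scaled to gene reads without TMM, both BrQ libraries (16.9 and 23.8 CPM) lay above both Vehicle libraries (15.7 and 13.1 CPM), which was not called either (adjusted p = 0.166, edgeR).

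Mios encodes a subunit of GATOR2, the complex that releases the brake on the Rag GTPases when amino acids are present. Its reads were 597 and 591 in BrQ libraries 1 and 3, against 559 and 555 in Vehicle libraries 1 and 3. Over all 4 libraries it varied least for its level among the members, though not between the Vehicle libraries alone. It stood at 75.8 ± 0.601 CPM in BrQ and 83.2 ± 2.79 CPM in Vehicle (SD, n = 2 each). The scaled groups did not overlap, with BrQ lower, but the order turned with the scaling: scaled to gene reads without TMM, BrQ was higher (85.4 and 86.7 CPM, against 76.4 and 69.5 CPM in Vehicle). Mios did not pass (log2 fold change -0.13 ± 0.15 SE, adjusted p = 0.500, edgeR), with a 95% interval from 0.719-fold to 1.16-fold, the narrowest among the 4 members not called.

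Laptm4b encodes a lysosomal membrane protein that is known to bring a leucine transporter to the lysosome. It had the fewest reads of the members, 108 and 70 in BrQ libraries 1 and 3, against 88 and 82 in Vehicle libraries 1 and 3. The scaled values were 13.6 and 9.03 CPM in BrQ and 12.8 and 12.6 CPM in Vehicle. The BrQ mice again lay on either side of the Vehicle mice, here with replicate 1 the higher of them. Laptm4b did not pass (log2 fold change -0.16 ± 0.29 SE, adjusted p = 0.676, edgeR), and its 95% interval, from 0.570-fold to 1.40-fold, does not separate a fall of the size seen for Atp6v1f from a rise. Without BrQ replicate 3 the log2 fold change was 0.12.

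Asns encodes asparagine synthetase, which makes asparagine from aspartate and glutamine and is a standard readout of amino acid shortage. It held 226 and 210 reads in BrQ libraries 1 and 3, against 184 and 268 reads in Vehicle libraries 1 and 3. After scaling the BrQ libraries lay close together, at 28.5 and 27.1 CPM, while Vehicle stood at 26.7 CPM in replicate 1 and 41.1 CPM in replicate 3. On this scale Vehicle replicate 3 was the one high library. Scaled to gene reads without TMM, it stood nearer to BrQ. Asns was then at 32.3 and 30.8 CPM in BrQ libraries 1 and 3, against 25.2 and 33.5 CPM in Vehicle libraries 1 and 3. Asns did not pass (log2 fold change -0.28 ± 0.24 SE, adjusted p = 0.343, edgeR), with a 95% interval from 0.571-fold to 1.18-fold. Without Vehicle replicate 3 the log2 fold change was 0.044, and without Vehicle replicate 1 it was -0.59. The sign of Asns thus depended on Vehicle replicate 3. It also depended on the scaling, at 0.10 with library sizes from gene reads alone.

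The Asns promoter is shown because it carries the element through which amino acid shortage is known to act on this gene. The capitals mark TGATGAAAC, the nutrient sensing element described in the human gene, here on the gene's own strand. The 250 bases are chr6:7693210-7693459 on the minus strand (RefSeq, GRCm38.p6). In GENCODE M21 the gene reaches 7693254, inside this stretch, so the marked match lies within the GENCODE gene.
Asns promoter: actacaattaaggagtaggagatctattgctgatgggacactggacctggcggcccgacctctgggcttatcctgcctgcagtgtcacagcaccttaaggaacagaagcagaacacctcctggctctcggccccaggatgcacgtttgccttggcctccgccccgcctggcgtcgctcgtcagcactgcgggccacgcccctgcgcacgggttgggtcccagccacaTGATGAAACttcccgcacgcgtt

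The match begins 23 bases before the RefSeq start. The same 9 letters, searched on both strands, occurred in 81 of 32851 promoter windows (0.247%) and in no window of the other 3 members found in the table. A match of letters is not a measure of use, and Asns reads gave no call in either direction.

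With TMM scaling, none of the 5 members differed more than the median feature, and Atp6v1f lay close to it. Non-overlapping groups, which 2 of 5 members showed, occurred for 76.1% of all features. In the stretches where names and reads seemed to meet, 43.8% of 438 features passed. The median absolute log2 fold change was 0.71 over all features and 0.50 in those stretches. Atp6v1f, at 0.69, stood at about the middle of all features, while Rragd (0.12), Mios (0.13), Laptm4b (0.16) and Asns (0.28) were below it. This order depended on the scaling. With library sizes from gene reads alone, the log2 fold change was 0.49 for Rragd and -0.32 for Atp6v1f. The median signed log2 fold change was 0.05 over all features and -0.16 in the stretches, and over 6 scalings the first moved between 0.01 and 0.42. Relative to it, Atp6v1f lay at -0.74 on the log2 scale under each of the 6 scalings, since rescaling moves all features by nearly the same amount. Relative to the same median, Asns lay between -0.34 and -0.32, Laptm4b at -0.21, Mios between -0.19 and -0.18, and Rragd between 0.07 and 0.08.

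**Figure D3:**
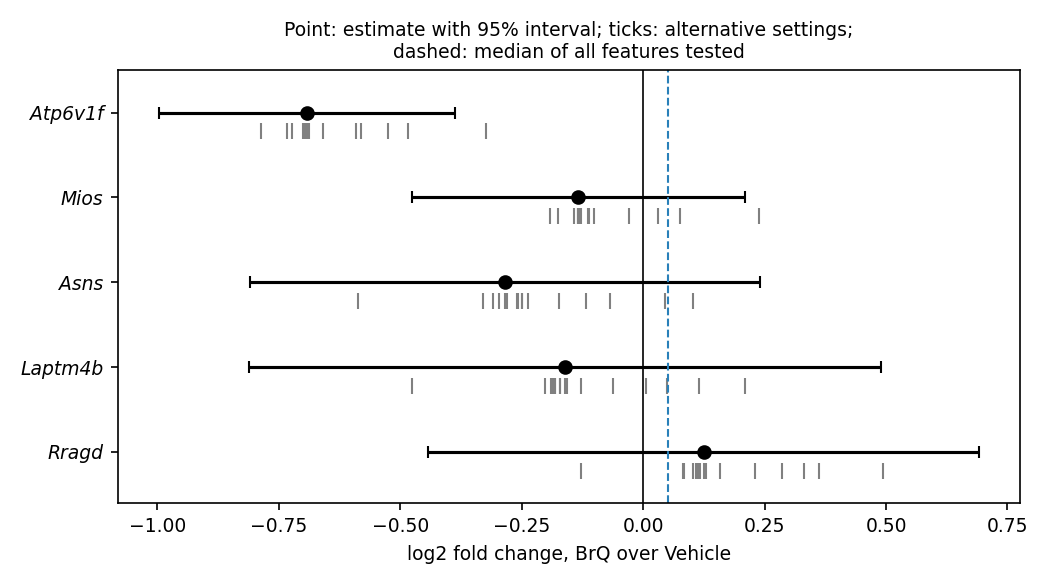
Log2 fold change of BrQ over Vehicle for each member, as the estimate with its 95% interval (point and bar) and under the alternative settings (grey ticks), with the median of all features dashed. The interval of Atp6v1f, from -0.997 to -0.387, is the one that does not reach 0.

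Ratios of reads between 2 members in the same library do not depend on scaling. Of the 10 pairs, 4 gave groups that did not overlap, and these were the 4 pairs that include Atp6v1f. For single features the share without overlap was 76.1%, and no such share was computed for ratios of other features. The log2 ratio of Atp6v1f to Mios was 1.96 and 1.74 in BrQ libraries 1 and 3, against 2.47 and 2.36 in Vehicle libraries 1 and 3. To Rragd it was 4.30 and 3.605 in BrQ against 4.75 and 4.76 in Vehicle. To Laptm4b it was 4.43 and 4.82 in BrQ against 5.13 and 5.12 in Vehicle. The pair with Asns was the least separated, at 3.37 and 3.23 in BrQ against 4.07 and 3.41 in Vehicle. The mean differences ranged from -0.80 (Rragd) to -0.44 (Asns) on the log2 scale. An exact permutation test over the 4 libraries, two-sided, gave p = 0.333 for each (0.833 adjusted over the 10 pairs), which is the smallest p for 2 mice against 2. The 4 ratios share the Atp6v1f reads, so they are not 4 separate observations.

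**Figure D4:**
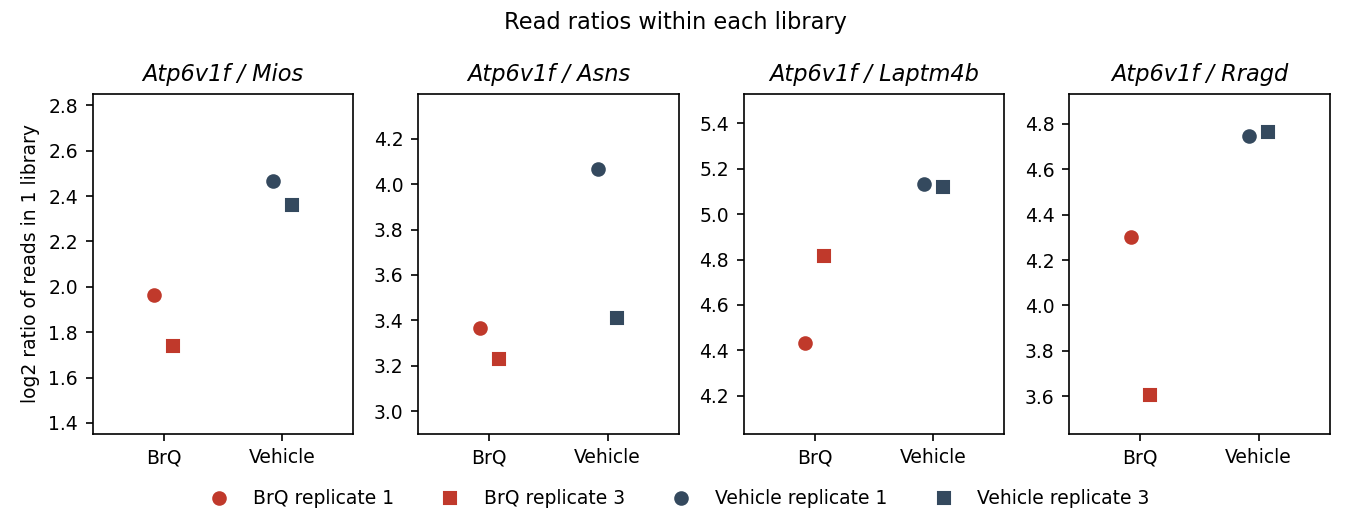
Log2 ratio of Atp6v1f reads to the reads of each other member within a library, for BrQ (left) and Vehicle (right), in panels with the same span. Both BrQ libraries lie below both Vehicle libraries in each panel, by the least for Asns (3.37 against 3.41 for the nearest libraries).

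Among the members, no shared course over the 4 libraries stood out. Mios was nearest to Rragd, Asns and Laptm4b, with root mean square differences of 0.21, 0.21 and 0.22 between their centred log2 CPM values over the 4 libraries, and the nearest to Mios was Asns. The values were not scaled to each gene's spread, so a gene that varies little lies near the others whatever its course. Atp6v1f had the largest distance to its nearest member, at 0.29 from Laptm4b, while the pair farthest apart was Atp6v1f and Rragd, at 0.47. Rragd and Laptm4b, the members whose BrQ mice differed most from each other, went opposite ways, with Rragd higher in BrQ replicate 3 and Laptm4b higher in BrQ replicate 1.

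Of 80 further genes of the pathway and the proton pump, 2 lay where names and reads seemed to meet. Bmt2, which encodes the S-adenosylmethionine sensor SAMTOR that acts on GATOR1, held 990 and 776 reads in BrQ libraries 1 and 3, against 503 and 621 reads in Vehicle libraries 1 and 3. That is 112.6 ± 17.6 CPM in BrQ and 84.2 ± 15.7 CPM in Vehicle (SD, n = 2 each). Bmt2 did not pass (log2 fold change 0.42 ± 0.19 SE, adjusted p = 0.0880, edgeR), but it passed as higher under 6 of 16 alternatives. These were library sizes from gene reads alone (0.80, adjusted p = 0.00201, edgeR), from all read rows and without mitochondrial genes, TMM factors from the stretches alone, a block that pairs BrQ replicate 1 with Vehicle replicate 3 and BrQ replicate 3 with Vehicle replicate 1, and leaving out Vehicle replicate 3. Adjusted p ran from 0.00201 to 0.421 over the 16. Atp6v0d2, a subunit of the pump's membrane sector known from osteoclasts and macrophages, had 17 and 6 reads in BrQ libraries 1 and 3, against 15 and 21 in Vehicle libraries 1 and 3, and did not pass (log2 fold change -0.87 ± 0.59 SE, adjusted p = 0.251, edgeR). No other well-counted pump subunit could be set beside Atp6v1f. Under all 80 names, 37 features were tested, 4 were called higher and 10 lower (10.8% and 27.0%, against 23.6% and 22.2% of all features), and 43 averaged under 10 reads. Apart from these 2, the values under those names were not taken as readings of the genes.

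Of 26 cell type markers, 8 lay where names and reads seemed to meet. With TMM scaling, 4 of these 8 were called lower in BrQ, 2 were called higher, 1 did not pass and 1 was not tested. Of all features tested, 22.2% were called lower and 23.6% higher. The markers were read with TMM scaling alone, and calls in either direction move with the scaling. With library sizes from gene reads alone, 1072 of all features were called lower, against 2267 with TMM. The part of these markers in the difference of Atp6v1f was not tested. The B cell markers Pax5 and Cd72 summed to 2075 and 2126 CPM in BrQ libraries 1 and 3, against 3254 and 3391 CPM in Vehicle libraries 1 and 3. Most of that gap was Cd72 (0.498-fold, adjusted p = 0.000285, edgeR), while Pax5 did not pass (0.856-fold, adjusted p = 0.155, edgeR). The T cell markers Il7r, Tox and Sit1 summed to 679.2 and 754.8 CPM in BrQ and to 1005 and 1070 CPM in Vehicle, with Il7r and Sit1 lower and Tox higher in BrQ. The fibroblast gene Col1a2 was lower in BrQ (0.581-fold, adjusted p = 0.0352, edgeR), and the adipocyte marker Lep had 0 reads in all 4 libraries. Cdh17, listed here under epithelium, was higher in BrQ (3.36-fold, adjusted p = 0.000562, edgeR), and which cells gave its reads was not tested. No myeloid marker lay in these stretches.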

How the data were processed

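Per the labels' protocols, lymph node RNA of 4 mice was used for paired-end sequencing. Trim Galore 0.6.2, HISAT2 2.1.0, HTSeq 0.11.2 and mm10 were used, per the submitters' processing notes. No annotation release or strand setting is named there. The authors deposited raw counts of reads, not normalized, in 1 table per mouse. The 5 closing rows that name no gene held 87.0% to 89.0% of all reads. They were not tested, and entered library sizes only where scaling was to all read rows. Sample titles gave each library's group and replicate number. Within each group, neither library was a copy of the other (chi-square per degree of freedom 12.4 within BrQ, 26.6 within Vehicle). Pairs across the groups were not compared in this way.

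Counts were tested with edgeR 4.0.16 in R 4.3.3 (quasi-likelihood, filterByExpr, TMM, group as the only term, Benjamini-Hochberg adjustment over all features, threshold 0.05). SE is the log2 fold change divided by the root of F. Alternatives were 14 planned ones (scalings, filters, legacy fit, replicate block, DESeq2 1.42.0, limma 3.58.1 voom, each library left out) and 2 added after seeing the data. The script was tested on simulated counts. Positions came from GENCODE M21 and promoters from RefSeq. Stretches where names and reads seemed to meet were taken from an earlier analysis of these counts. The named genes are the members, plus genes of the pathway and marker lists inside those stretches. Members and lists were chosen with earlier results of these data known.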

Additional observations from a re-analysis of the deposited data

How the results depend on the processing

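Atp6v1f kept its sign under all 16 alternatives and its call under 14. With library sizes from gene reads alone, its log2 fold change was -0.32, and 0 members were called. The signs of members that were not called moved with the scaling. With gene reads alone they were 0.10 for Asns, 0.21 for Laptm4b and 0.24 for Mios. With all read rows they were 0.049 for Laptm4b and 0.076 for Mios, and with library sizes free of mitochondrial genes, chosen after seeing the data, 0.0063 for Laptm4b and 0.031 for Mios. These scalings move all features, and which of them suits these libraries was not tested. Leaving out each library in turn gave log2 fold changes from -0.79 to -0.58 for Atp6v1f, -0.59 to 0.044 for Asns, -0.48 to 0.12 for Laptm4b and -0.13 to 0.36 for Rragd, and from 0 to 1 members called. A group of 1 mouse is then assumed to vary like the other group. Over all features, the number called was 4676, against 2481 with no low count filter and 2031 (without BrQ replicate 3) to 4376 (without Vehicle replicate 1) with a library left out. Called features split into 3603 higher and 1072 lower with gene reads alone, 3092 and 1578 with all read rows, and 3000 and 1730 without mitochondrial genes, against 2409 and 2267. With the replicate number as a block, Atp6v1f stayed called (-0.70, adjusted p = 0.00511, edgeR), as the only member, and 4190 features passed. Same-numbered libraries deviated with a correlation of -0.12 over features, and a block with crossed numbers, chosen after seeing the data, called 5284 features and 1 member. Laptm4b had the fewest reads, 70 to 108 per library, and its 95% interval, like that of Asns, holds both no change and the fold of Atp6v1f.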
